A study of Homo sapiens with 6 samples.

Results

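The spliceosomal small nuclear RNAs and the U7 small nuclear RNA were examined in 95D, a human lung cancer cell line, under 3 culture media. The RNAs were selected on their level: they are the table rows whose symbol begins with RNU or RNVU followed by a digit and that reached 1 FPKM, a fragment count scaled to transcript length and library size, in at least 1 library. Of 59609 rows, 1831 carried such a symbol, and 352 of these reached the level. The other 1479 rows stayed below 1 FPKM in every library, 1273 of them at 0. The 352 RNAs comprise 41 genes and 311 copies, a copy being a row whose symbol ends in P, the ending used for pseudogenes, except RNU2-2P, which was counted with the genes. RefSeq lists 33 of the 41 genes as small nuclear RNAs, 6 as pseudogenes and 1 as a small nucleolar RNA, and 1 was not matched. Because they were chosen by their highest level, a row present in a single medium could enter through that medium. Just inside the limit stood RNU6-1219P and RNU6-1056P, each with a highest library of 1.01 FPKM, and just outside it stood RNU2-20P at 0.995 and RNU6-466P at 0.992 FPKM. The highest library of 137 of the 352 was under 2 FPKM.

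Control cells grew in DMEM with 10% fetal bovine serum. Cells in glucose deprivation and in glutamine deprivation had 24 h to settle in complete medium and then spent 48 h in DMEM lacking glucose or lacking glutamine, each with 10% dialyzed serum, so that the serum changed together with the nutrient. Total RNA was depleted of ribosomal RNA and sequenced with paired reads of 150 bases. The labels list 2 libraries for each medium, and 5 of the 6 were used, 2 control, 2 glucose-deprived and 1 glutamine-deprived, since the header of the remaining value column did not match its sample. The labels do not tell whether replicates are separate cultures, and the p-values therefore rest on a spread between libraries that may be technical. The epithelial keratin genes KRT8 and KRT18 were present at 4.15 to 5.50 and 16 to 21.7 FPKM and the mesenchymal gene VIM at 76.2 to 150 FPKM. The lung lineage gene NKX2-1 stood at 0.709 to 1.17 FPKM, EPCAM at no more than 0.139 FPKM, and KRT19 was listed at 0. Of the marker lists, 2 of 6 epithelial genes, 3 of 3 mesenchymal genes and 1 of 3 lung genes reached the level for testing. No gene of the leukocyte, endothelial or erythroid marker lists (4, 3 and 2 genes) reached the level for testing. Of the fibroblast list 1 gene did, COL1A1, at 0.642 and 0.575 FPKM in control, 0.384 and 0.388 in glucose deprivation and 1.83 in glutamine deprivation. It differed by -0.21 (adjusted p = 0.0423, limma) and 0.81 (adjusted p = 0.000286, limma) from control on the log2 scale, and its part in the results was not tested.

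Introns are removed from most messenger RNAs by the major spliceosome, which is built from particles named after the U1, U2, U4, U5 and U6 RNAs. The 5′ end of U1 RNA pairs with the start of the intron, U2 pairs with the branch point, U5 holds the exon ends, and U6 is delivered paired to U4 and then takes the place of U1 at the start of the intron. A small class of introns is removed by the minor spliceosome, in which U11, U12, U4atac and U6atac take the places of U1, U2, U4 and U6, while U5 is shared. U7 RNA does not act in splicing: it pairs with replication-dependent histone pre-mRNA and directs the cleavage of its 3′ end. All these RNAs except U6 and U6atac are made by RNA polymerase II, are trimmed at the 3′ end with the help of the Integrator complex, are exported, and gain a ring of Sm or Lsm proteins in the cytoplasm, whereas U6 and U6atac are made by RNA polymerase III. The genes are repeated in the genome and have left many inactive copies, so reads of one RNA can match several rows.

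The sequences shown are those the results turn on, taken from the transcripts of GENCODE release 29 (GRCh38) and written as DNA. In the U1 sequences the capitals mark bases 3 to 11, counted from the 5′ end, which hold the stretch that pairs with the start of an intron. RNU1-1 lies at chr1:16514122-16514285 on the minus strand, RNVU1-15 at chr1:144412576-144412740 on the plus strand and RNVU1-30 at chr1:149636766-149636929 on the plus strand. They are shown because these U1 rows differ in their pairing stretch.
RNU1-1: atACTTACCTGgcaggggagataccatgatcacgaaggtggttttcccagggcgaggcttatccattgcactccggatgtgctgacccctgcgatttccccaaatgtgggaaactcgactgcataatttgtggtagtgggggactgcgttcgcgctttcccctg
RNVU1-15: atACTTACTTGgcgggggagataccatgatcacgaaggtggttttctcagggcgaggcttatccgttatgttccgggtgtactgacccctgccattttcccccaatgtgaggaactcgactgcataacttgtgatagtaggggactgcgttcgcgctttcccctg
RNVU1-30: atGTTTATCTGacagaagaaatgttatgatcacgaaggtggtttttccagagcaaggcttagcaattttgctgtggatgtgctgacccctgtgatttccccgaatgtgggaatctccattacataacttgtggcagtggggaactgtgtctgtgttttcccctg

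The U2 sequences are shown because the highest U2 gene kept its level while a U2 copy fell, as described further on. The capitals mark the branch-point pairing letters GTAGTA of RNU2-2P, at bases 33 to 38, and the letters GTAGT at bases 34 to 38 of RNU2-63P. RNU2-2P lies at chr11:62841619-62841809 on the minus strand, within an exon of WDR74 on the same strand, and RNU2-63P at chr2:88016354-88016547 on the minus strand, overlapping no annotated gene.
RNU2-2P: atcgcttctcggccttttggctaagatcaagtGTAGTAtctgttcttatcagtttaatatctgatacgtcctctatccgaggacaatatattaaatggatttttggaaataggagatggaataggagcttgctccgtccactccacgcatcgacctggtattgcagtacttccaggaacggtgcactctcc
RNU2-63P: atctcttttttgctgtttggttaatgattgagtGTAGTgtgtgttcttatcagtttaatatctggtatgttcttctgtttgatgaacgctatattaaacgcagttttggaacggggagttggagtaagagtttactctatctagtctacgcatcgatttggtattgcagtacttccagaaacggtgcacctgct

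For the minor spliceosome the genes RNU11 and RNU4ATAC are shown, with the Sm-type letters AATTTTT in capitals. RNU11 lies at chr1:28648600-28648733 on the plus strand, within an exon of the lincRNA gene AL360012.1 on the same strand, and RNU4ATAC at chr2:121530881-121531007 on the plus strand, opposite an intron of CLASP1.
RNU11: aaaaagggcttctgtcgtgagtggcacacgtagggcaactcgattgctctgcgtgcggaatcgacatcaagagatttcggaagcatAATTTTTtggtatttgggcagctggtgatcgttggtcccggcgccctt
RNU4ATAC: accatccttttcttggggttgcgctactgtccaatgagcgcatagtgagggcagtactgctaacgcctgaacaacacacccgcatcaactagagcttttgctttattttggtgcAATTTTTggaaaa

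For U7 the gene RNU7-1, which was listed at 0, and the copy RNU7-124P, the U7 row highest in glutamine deprivation, are shown with the letters AATTTGT in capitals. RNU7-1 lies at chr12:6943816-6943878 on the plus strand and RNU7-124P at chr9:37936707-37936768 on the minus strand, within an intron of AL138752.2 on the same strand.
RNU7-1: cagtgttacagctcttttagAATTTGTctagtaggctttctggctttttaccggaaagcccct
RNU7-124P: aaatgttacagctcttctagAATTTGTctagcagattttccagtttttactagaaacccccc

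The depth behind each library, inferred from values of single-exon genes that fall on whole-read steps, was 34600000 to 48950000 fragments. The small nuclear RNAs took 0.0265% and 0.0271% of the fragments in the control libraries, 0.0199% and 0.0200% in glucose deprivation and 0.0274% in glutamine deprivation. At 106 bases, the median length of the U6 rows, 1 FPKM corresponds to 3.76 fragments, and 251 of the 352 rows averaged fewer than 10 fragments. Such a row is shorter than a read of 150 bases. How far size selection in the library preparation kept RNAs this short was not tested. A level given here therefore need not follow the amount of the mature RNA in the cells. All levels given are FPKM divided by a scaling factor per library of 0.960 to 1.08, and all tests are limma on log2(FPKM + 1) over 16752 rows with Benjamini-Hochberg adjustment, a row being called at an adjusted p under 0.05. A log2 fold change on this scale understates the change of a low row. The median standard error of a log2 fold change was 0.07 to 0.08 over all rows tested and 0.38 to 0.46 over the small nuclear RNAs. Of all rows tested, 54.4% were called in glucose deprivation, 50.8% in glutamine deprivation and 44.4% between the deprivations. The share of calls that were higher was 48.4% for glucose deprivation and 48.5% for glutamine deprivation against control, and 50.7% for glutamine against glucose deprivation. Under 3 other scalings (values as deposited, the upper quartile, the sum of FPKM) these shares were 54.1%, 59.8% and 67.7% in glucose deprivation, 67.4%, 68.2% and 91.0% in glutamine deprivation, and 68.2%, 62.6% and 85.5% between them. The median log2 fold change of all rows, 0.03 in glucose deprivation and 0.05 in glutamine deprivation, reached up to 0.11 and 0.29 under those scalings. None of the 80, 56 and 48 small nuclear RNAs called in the 3 comparisons changed sign under any of them. The called log2 fold changes nearest 0 were 0.55, -0.52 and 0.42, further from 0 than these scalings moved the median of all rows. A change of sign therefore had little room to occur, and its absence says little about the scaling. In total RNA of a culture, fewer cells with an RNA and less of it per cell cannot be told apart.

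In glucose deprivation most genes fell, and of the copies called most were higher. Of the 41 genes, 29 were lower than in control and 1 was higher, while of the 311 copies 44 (14.1%) were higher, 6 lower and 261 not called. Over all rows tested, 26.3% were higher and 28.1% lower, so copies were called higher at a smaller share than all rows. The median log2 fold change was -1.50 over the genes and 0.36 over the copies. The 29 genes that fell did so by -3.08 to -0.85, with a median of -1.87, and the 44 copies that rose did so by 0.55 to 3.07, with a median of 1.19. The rule admitted rows through their highest library, which counts, medians and sums over the rows inherit. Several genes share a sequence, as described further on, so counts of genes here and below are not over independent rows. Among rows with a mean of at least 1 FPKM over the 5 libraries, 28 of 38 genes fell and none rose, and 41 of 176 copies rose and 6 fell. Without control replicate 1 the total of 80 calls became 50, with 25 genes lower and 21 copies higher.

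In glutamine deprivation fewer genes fell, and by less. Of the 41 genes 15 were lower and 1 was higher, and of the 311 copies 35 were higher and 5 lower, against 24.7% higher and 26.2% lower over all rows tested. The median log2 fold change was -0.48 over the genes and 0.37 over the copies. The 15 genes fell by -1.30 to -0.52. With a mean of at least 1 FPKM, 15 of 38 genes fell and 1 rose, and 30 of 176 copies rose and 4 fell. The total of 56 calls became 27 without control replicate 1, with 10 genes lower and 14 copies higher, and 33 without control replicate 2, with 11 genes lower and 19 copies higher.

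The direct comparison of glutamine with glucose deprivation gave 25 genes higher in glutamine deprivation and none lower, by 0.42 to 2.66 with a median of 1.42. Of the copies, 12 were higher and 11 lower, against 22.5% higher and 21.9% lower over all rows tested. Without control replicate 1, 5 copies were higher and 7 lower, and without control replicate 2, 7 were higher and 7 lower. This comparison and the preceding one share the glutamine-deprived library, and both comparisons with control share the control libraries, so that they are not independent. In 24 of the 41 genes the glutamine-deprived library lay above both glucose-deprived libraries and below both controls.

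**Figure D1:**
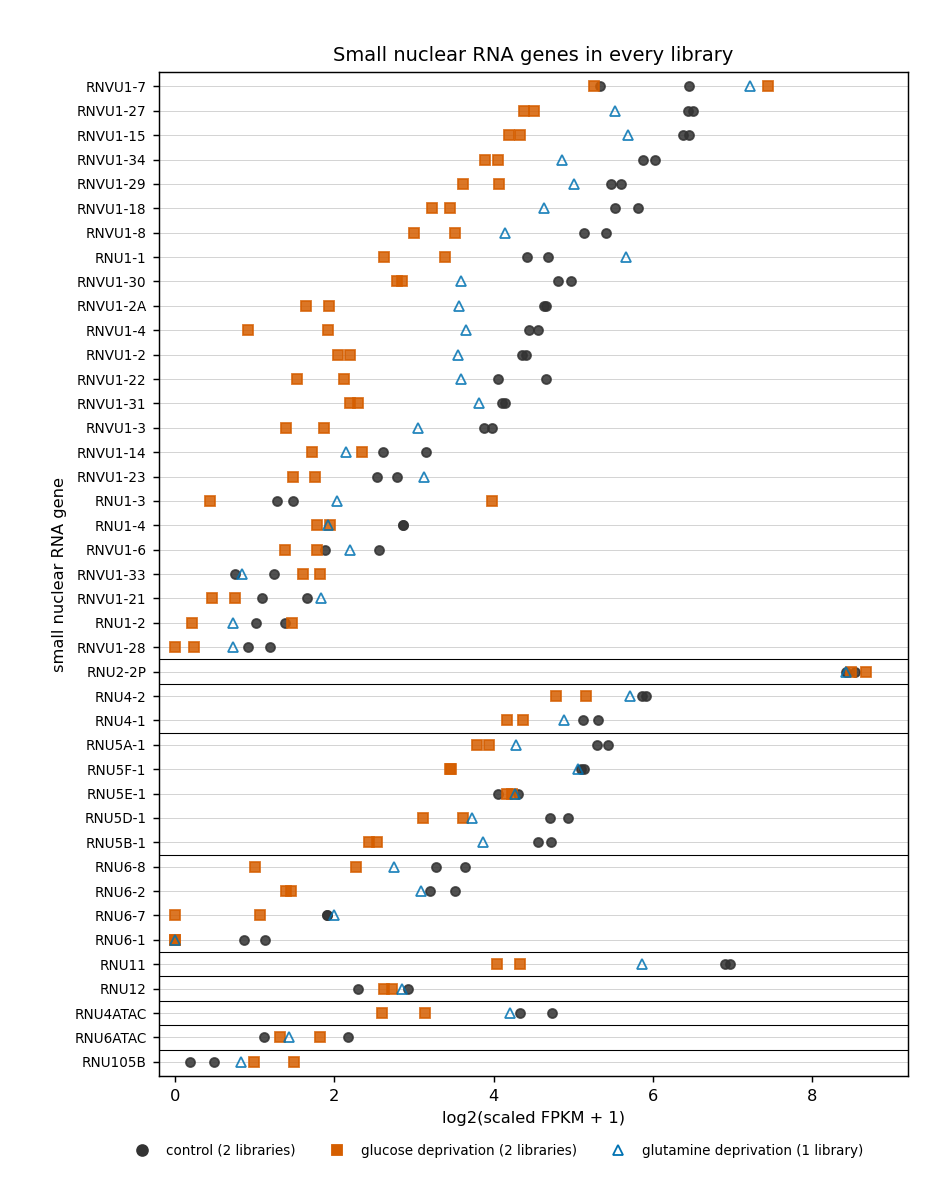
Level of the small nuclear RNA genes in each library as log2(scaled FPKM + 1), with a point for each library of control, glucose deprivation and glutamine deprivation. Most genes have their glucose-deprived points below the controls and the glutamine-deprived point between, as for RNU11 (119 and 124 in control, 15.4 and 19.1 in glucose deprivation, 57.0 in glutamine deprivation, scaled FPKM), while RNU2-2P stays between 343 and 406.

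U1 was the largest set of genes, with 4 rows named RNU1 and 20 named RNVU1, the U1 variant genes. Of the 24, 18 fell in glucose deprivation and none rose, and 11 fell and 1 rose in glutamine deprivation. Summed over the 24 genes, the U1 level was 625 ± 48.5 (SD, n = 2) in control, 241 ± 88.4 (SD, n = 2) in glucose deprivation and 493 in the glutamine-deprived library. The variant rows carried most of this sum. RNU1-1, the gene that rose in glutamine deprivation, belongs to the set with a shared sequence. Summed over the 8 rows of that sequence, copies included, the level there was lower than in control (log2 ratio -0.26).

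RNVU1-27, among the highest of the U1 variants, had levels of 89.6 and 85.8 in control, 19.8 and 21.7 in glucose deprivation and 44.8 in glutamine deprivation. It fell by 2.03 on the log2 scale in glucose deprivation (SE 0.08, adjusted p = 5.2e-06) and by 0.95 in glutamine deprivation (SE 0.10, adjusted p = 0.000176), and the 3 media did not overlap. RNVU1-15 stood at 82.2 and 86.8, then 19.2 and 17.3, then 50.7, a fall by 2.15 (SE 0.08, adjusted p = 5.2e-06) and by 0.73 (SE 0.10, adjusted p = 0.000703). It shows the same order of media. RNVU1-34, which RefSeq lists as a pseudogene although its symbol is that of a gene, stood at 63.9 and 57.5, then 13.9 and 15.6, then 28.

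Of the lower variants, RNVU1-30, RNVU1-2A, RNVU1-4, RNVU1-2 and RNVU1-31 kept that order. RNVU1-23 did not, with log2 fold changes against control of -1.05 in glucose deprivation and 0.46 in glutamine deprivation. Nor did RNVU1-21, with -0.77 and 0.46. RNVU1-30, which carries GTTTATCTG as its pairing stretch, stood at 30.4 and 26.9 in control, 5.88 and 6.22 in glucose deprivation and 11.1 in glutamine deprivation, with log2 fold changes of -2.07 (SE 0.11, adjusted p = 1.42e-05) and -1.30 (SE 0.14, adjusted p = 0.000239). RNVU1-2A stood at 24.2 and 23.8, then 2.11 and 2.83, then 10.8. It fell by 2.86 (SE 0.14, adjusted p = 9.7e-06) in glucose deprivation. The steepest fall of any gene was that of RNVU1-4, by 3.08 (SE 0.28, adjusted p = 0.000102), from 20.8 and 22.5 in control to 2.78 and 0.888 in glucose deprivation, and its 11.6 in glutamine deprivation was not called against control (adjusted p = 0.0764). RNVU1-2 (19.4 and 20.1, then 3.14 and 3.60, then 10.7) fell by 2.25 (adjusted p = 1.42e-05) and by 0.83 (adjusted p = 0.00303). RNVU1-31 stood at 16.6 and 16.2, then 3.60 and 3.91, then 13, with a fall by 1.87 (adjusted p = 2.5e-05) in glucose deprivation and a difference of -0.31 in glutamine deprivation that did not pass (adjusted p = 0.122).

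Others had the same fall in glucose deprivation with less support in glutamine deprivation. RNVU1-8, at 41.6 and 34.2, then 10.5 and 7.03, then 16.7, fell by 2.01 in glucose deprivation. RNVU1-22 stood at 24.3 and 15.7, then 1.88 and 3.34, then 11.1, a fall by 2.54 (SE 0.25, adjusted p = 0.000133), and its difference of -0.77 in glutamine deprivation did not pass (adjusted p = 0.0687). RNVU1-3 stood at 13.7 and 14.8, then 2.66 and 1.63, then 7.30, a fall by 2.29 (adjusted p = 5.43e-05). The rows RNVU1-6, RNVU1-21 and RNVU1-33, all below 5 FPKM, were not called against control in either deprivation, with adjusted p of 0.062 to 0.0878 in glucose deprivation. RNVU1-33, in an intron of ZFAND3, had its higher levels in glucose deprivation, 2.52 and 2.06 against 0.691 and 1.36 in control and 0.785 in glutamine deprivation. A further 7 U1 variant rows named by their symbol as reference genes stayed below the limit, RNVU1-17, RNVU1-19, RNVU1-24 and RNVU1-25 at 0 in all libraries.

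Some calls depended on single libraries. In glucose deprivation the fall of RNVU1-14 (log2 fold change -0.85) was not called without control replicate 1 (adjusted p = 0.237), without control replicate 2 (0.0635) or without glucose deprivation replicate 1 (0.184). RNVU1-23 (-1.05) was not called without control replicate 2 (adjusted p = 0.0514). RNVU1-28 (-0.94) lost its call without control replicate 1 (0.106), without glucose deprivation replicate 1 (0.0736) and without the glutamine-deprived library (0.0875), and under the 3 other scalings (0.0526 to 0.116). In glutamine deprivation RNVU1-29 (-0.52) and RNVU1-3 (-0.87) were not called without either control (adjusted p of 0.134 and 0.229, and of 0.0776 and 0.113), and RNVU1-8 (-1.13) was not called without control replicate 1 (0.0573). RNVU1-29 was also not called with any of the 3 other scalings (adjusted p of 0.0938 to 0.314). RNVU1-14 lies in an exon of the lincRNA gene AC245014.3 on the same strand, a row with levels of 80.9 and 70.9 in control, 20.2 and 24.9 in glucose deprivation and 41.8 in glutamine deprivation. How the authors' counting shared fragments between these rows was not given in the sources used here.

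RNVU1-7 stood apart from most other variants. Its levels were 86.8 and 39.3 in control, 37.4 and 173 in glucose deprivation and 148 in glutamine deprivation. The glucose-deprived replicates lie on either side of the control mean, the glutamine-deprived library lies above both controls, and neither comparison with control was called (log2 fold change 0.46, SE 0.64, adjusted p = 0.567, and 1.32, SE 0.78, adjusted p = 0.192). Of the 352 RNAs, 6 differed by more than 2 log2 units between the glucose-deprived replicates and none did between the controls. Without glucose deprivation replicate 2, where RNVU1-7 is high, the log2 ratio of the U1 sum over genes and copies in glucose deprivation was -1.67 against -1.23 with both.

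Rows with the same sequence cannot be told apart by reads that lie within them. RNU1-1 shares its 164 bases with 7 other rows, RNU1-2, RNU1-3, RNU1-4, RNVU1-18, RNVU1-29 and the copies RNU1-27P and RNU1-28P, all among the 352. Their separate levels moved in different directions: RNU1-3 stood at 1.43 and 1.80 in control but at 14.7 and 0.355 in the glucose-deprived libraries. RNU1-28P stood at 4.83 and 5.13 in control, at 2.94 and 26.5 in glucose deprivation and at 0.488 in glutamine deprivation. Such a read matches all 8, so the level of a single row is uncertain and only the sum over the set can be read. The highest of the 8 were RNVU1-18, at 54.9 and 45.2 in control, 8.33 and 9.95 in glucose deprivation and 23.8 in glutamine deprivation, and RNVU1-29, at 43.3 and 47.6, then 11.3 and 15.8, then 31.3. The lowest were RNU1-2, between 0.163 and 1.78, and RNU1-27P, between 0.163 and 3.22. The summed level was 136 and 134 in control, 49.5 and 63.2 in glucose deprivation and 113 in glutamine deprivation. The log2 ratio of the means to control was -1.26 in glucose deprivation and -0.26 in glutamine deprivation, so the sum was lower in both glucose-deprived libraries than in any other library.

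**Figure D2:**
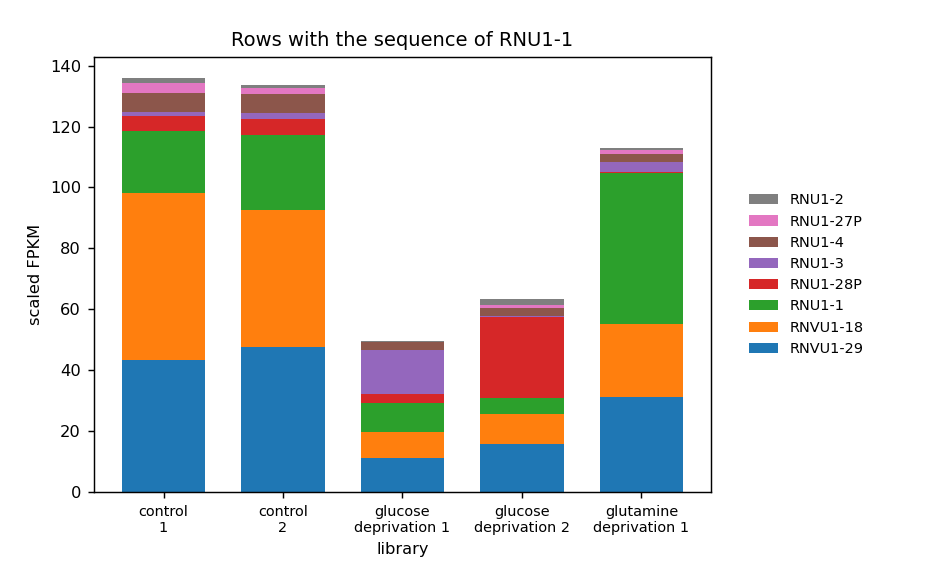
Level (scaled FPKM) of each of the 8 rows that share the sequence of RNU1-1, stacked by library so that the height of a bar is their sum. Single rows such as RNU1-3 and RNU1-28P jump between the glucose-deprived libraries, while the sum is 136 and 134 in control, 49.5 and 63.2 in glucose deprivation and 113 in glutamine deprivation.

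RNU1-1 itself had levels of 20.4 and 24.6 in control, 9.48 and 5.15 in glucose deprivation and 49.7 in glutamine deprivation. Its fall in glucose deprivation (log2 fold change -1.54, SE 0.23, adjusted p = 0.000933) and its rise in glutamine deprivation (1.11, SE 0.28, adjusted p = 0.0125) carry the uncertainty of the shared sequence. The rise was not called without control replicate 1 (adjusted p = 0.115) or without control replicate 2 (0.0771). With no filter on low rows neither the fall nor the rise of RNU1-1 was called, and with the variance trend over the level the rise was not called. RNU1-4 stood at 6.26 and 6.29, then 2.45 and 2.84, then 2.77. Its difference of -0.95 in glutamine deprivation was not called without control replicate 1 (0.0516) or 2 (0.0567).

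Of the U1 copies 3 rose and 1 fell in glucose deprivation, the latter RNU1-27P, whose call was lost without control replicate 1 (adjusted p = 0.147), without control replicate 2 (0.0535) or without glucose deprivation replicate 1 (0.0769). RNU1-91P, in an intron of CARS, stood at 0.900 and 0.387 in control, 2.30 and 1.61 in glucose deprivation and 4.75 in glutamine deprivation. It rose by 1.82 (SE 0.33, adjusted p = 0.00274) in glutamine deprivation. Its rise by 0.85 in glucose deprivation was called in the full fit (adjusted p = 0.0291) and not without 1 library in 4 of 5 cases (adjusted p of 0.0509 to 0.155).

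In the stretch that pairs with the intron start, 12 of the 23 located U1 genes carry ACTTACCTG at bases 3 to 11, as RNU1-1 does, and 11 carry other letters. In glucose deprivation 8 of the 12 fell, with a median log2 fold change over the 12 of -0.97, and 9 of the other 11 fell, with a median of -2.15. The 12 include the 6 genes that share 1 sequence, so neither group consists of independent rows, and no test of their difference was made.

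The highest U2 row differed from most U1 genes, while another U2 row, RNU2-63P, fell as they did. RNU2-2P, the highest of all the small nuclear RNA rows, had levels of 371 and 343 in control, 406 and 358 in glucose deprivation and 343 in glutamine deprivation. The media overlap, with a log2 fold change of 0.10 (SE 0.07, adjusted p = 0.274) in glucose deprivation and -0.06 (adjusted p = 0.600) in glutamine deprivation. Its host WDR74 stood at 31.2 and 29.9, then 29.7 and 29.7, then 24.2, so that RNU2-2P is far above the gene it lies in. RNU2-1, whose sequence is the reference for U2, had 1 fragment in all 5 libraries together and was not among the 352. RNU2-63P is counted with the copies by its symbol but is listed as a small nuclear RNA gene by RefSeq. It stood at 35.1 and 34 in control, 4.28 and 4.66 in glucose deprivation and 19.7 in glutamine deprivation. It fell by 2.70 on the log2 scale (SE 0.10, adjusted p = 4.5e-06) and by 0.78 (SE 0.12, adjusted p = 0.00112). The copy RNU2-34P, in an intron of TENM3, stood at 0.728 and 1.74, then 2.88 and 3.13, then 3.75, and lost both its calls without control replicate 1 (adjusted p of 0.182 and 0.115) and without either glucose-deprived library (0.0971 and 0.12, and 0.0554 and 0.0566).

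Both U4 genes, which carry U6 into the spliceosome, fell in glucose deprivation. RNU4-2 stood at 57.0 and 59.2 in control, 26.4 and 34.7 in glucose deprivation and 51.3 in glutamine deprivation (log2 fold change -0.92, SE 0.13, adjusted p = 0.000624). RNU4-1 stood at 33.9 and 38.5, then 16.9 and 19.6, then 28.6 (-0.95, SE 0.11, adjusted p = 0.000345). In glutamine deprivation the differences of -0.18 and -0.33 did not pass (adjusted p of 0.368 and 0.0863). Between the deprivations both were higher in glutamine deprivation, RNU4-2 by 0.74 (adjusted p = 0.0063) and RNU4-1 by 0.62 (0.00911), and the latter was not called without glucose deprivation replicate 1 (0.0535). With no filter on low rows RNU4-2 was not called in glucose deprivation (adjusted p = 0.056). The U4 copy of largest rise, RNU4-87P in an intron of KLHL2, stood at 0 and 1.28, then 4.25 and 3.55, then 1.63. Its rise of 1.69 (adjusted p = 0.0105) was not called without control replicate 1 (0.0593), without glucose deprivation replicate 1 (0.0796) or without replicate 2 (0.0577). RNU4-21P, the other U4 copy of high mean, lay between 0.932 and 3.39 with overlapping media.

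Of the 5 U5 genes 4 fell in glucose deprivation, and summed over the 5 the level was 142 ± 3.29 (SD, n = 2) in control, 55 ± 2.24 (SD, n = 2) in glucose deprivation and 94.6 in glutamine deprivation. RNU5A-1 stood at 38.2 and 42.1, then 14.3 and 12.8, then 18.4, a fall by 1.5 (SE 0.11, adjusted p = 4.23e-05) and by 1.08 (SE 0.14, adjusted p = 0.00052). RNU5B-1 stood at 22.5 and 25.4, then 4.39 and 4.77, then 13.6. It fell by 2.16 (SE 0.13, adjusted p = 2e-05) and by 0.77 (adjusted p = 0.00549), the latter not called without control replicate 2 (0.0621). RNU5F-1 behaved otherwise in glutamine deprivation, with 34.1 and 33.3 in control, 10.1 and 9.96 in glucose deprivation and 32.2 in glutamine deprivation. It fell by 1.65 (SE 0.10, adjusted p = 2.05e-05) in glucose deprivation, differed by -0.06 (adjusted p = 0.692) in glutamine deprivation, and was higher by 1.59 (adjusted p = 0.000127) in glutamine than in glucose deprivation. RNU5D-1 stood at 29.6 and 25.2, then 7.62 and 11.3, then 12.2, and its fall in glutamine deprivation was not called without control replicate 1 (adjusted p = 0.0641).

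RNU5E-1 was the U5 gene that did not follow. It stood at 15.7 and 18.8 in control, 17 and 17.7 in glucose deprivation and 18.2 in glutamine deprivation (log2 fold change 0.02, adjusted p = 0.928, and 0.09, adjusted p = 0.680). It lies in an exon of the lincRNA gene AL021155.2, which was listed at 0. The copies RNU5A-8P and RNU5E-4P fell with the genes. RNU5A-8P stood at 32.4 and 36.4, then 4.23 and 4.09, then 16.4 (-2.78, SE 0.12, adjusted p = 7.29e-06). RNU5E-4P, singled out after its values were seen, stood at 23.0 and 17.7, then 4.24 and 4.61, then 9.12 (-1.97, SE 0.16, adjusted p = 6.1e-05). Both lie in introns on the strand opposite to their host.

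The U6 genes had low levels, summing to 23.2 ± 0.215 (SD, n = 2) in control, 4.64 ± 2.67 (SD, n = 2) in glucose deprivation and 16.2 in glutamine deprivation. RNU6-2 stood at 8.23 and 10.4, then 1.75 and 1.63, then 7.49, a fall by 1.93 (SE 0.19, adjusted p = 0.000138) in glucose deprivation and a difference of -0.27 (adjusted p = 0.357) in glutamine deprivation. RNU6-2 shares its sequence with 6 other rows, and the sum over the set was 10.7 and 12.6 in control, 2.76 and 2.45 in glucose deprivation and 9.23 in glutamine deprivation. RNU6-8 stood at 11.5 and 8.65, then 1.00 and 3.81, then 5.74, and RNU6-7, which has the same sequence as RNU6-8, at 2.74 and 2.75, then 0 and 1.09, then 2.99. Their falls in glucose deprivation (-1.82, adjusted p = 0.00496, and -1.37, adjusted p = 0.0168) were not called without control replicate 1 (0.0853 and 0.114) or without control replicate 2 (0.0574 and 0.119). RNU6-1 was at 0.823 and 1.18 in control, from 3 and 6 fragments, and listed at 0 in the other 3 libraries. RNU6-9 had 1 fragment in all.

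The U6 copies that met the rule were higher in sum in both deprivations. They entered through their highest library, so a sum can be raised in the media that admitted rows. The 215 U6 copies together stood at 293 ± 13.8 (SD, n = 2) in control, 458 ± 42.0 (SD, n = 2) in glucose deprivation and 440 in glutamine deprivation, so the U6 sum is set by copies and not by the genes. Of the 215, 30 (14%) rose and 2 fell in glucose deprivation, and 23 (10.7%) rose and 2 fell in glutamine deprivation, below the 26.3% and 24.7% of all rows tested that were higher. RNU6-1016P, the highest, lies in an intron of SENP6 and stood at 21.5 and 28, then 45.3 and 43.1, then 36.9. It rose by 0.82 (SE 0.14, adjusted p = 0.0016) in glucose deprivation and by 0.57 (adjusted p = 0.0234) in glutamine deprivation, the latter not called without control replicate 1 (0.104) or without either glucose-deprived library (0.0658 and 0.066). SENP6 differed by 0.34 and -0.02 in the same comparisons.

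RNU6-616P, which overlaps no annotated gene, showed the largest rise of any of the 352, from 0.274 and 0.393 in control to 11.5 and 8.99 in glucose deprivation, with 0.250 in glutamine deprivation. These values rest on 1 and 2 fragments in control, 46 and 33 in glucose deprivation and 1 in glutamine deprivation. The log2 fold change was 3.07 (SE 0.22, adjusted p = 3.49e-05) in glucose deprivation, -0.09 (adjusted p = 0.793) in glutamine deprivation and -3.16 (SE 0.27, adjusted p = 0.000172) between them. RNU6-122P, in an intron of XIAP, rose in both deprivations, from 0.549 and 0.787 to 5.26 and 4.08, and to 4.74 (1.76, adjusted p = 0.000663, and 1.79, adjusted p = 0.00187). RNU6-1176P was listed at 0 in both controls and stood at 2.50 and 3.00 in glucose deprivation and 2.00 in glutamine deprivation. Of the 2 U6 copies lower in glucose deprivation, RNU6-781P changed by -1.72 (adjusted p = 0.00442) and RNU6-301P by -1.02 (adjusted p = 0.0489).

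The next U6 copies in mean level, RNU6-759P and RNU6-130P, showed smaller differences. RNU6-759P, in an intron of CPNE1, stood at 4.84 and 7.35, then 8.33 and 9.05, then 5.96, and was called in no comparison. RNU6-130P, in an intron of IBTK, stood at 5.13 and 5.72, then 8.85 and 7.92, then 3.89. It was lower in glutamine than in glucose deprivation by -0.94 (SE 0.22, adjusted p = 0.0113), and its rise by 0.55 in glucose deprivation was not called without any 1 of the 4 control and glucose-deprived libraries (adjusted p of 0.0577 to 0.159).

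Other U6 copies are named for the size of their change. RNU6-322P, outside any gene, stood at 0.285 and 1.43, then 3.64 and 4.24, then 5.44, and rose by 1.48 (adjusted p = 0.00686) and 1.87 (adjusted p = 0.00661), the first not called without glucose deprivation replicate 2 (0.0614). RNU6-503P stood at 1.12 and 0, then 2.04 and 2.50, then 4.07, and its rises of 1.16 and 1.80 were not called without control replicate 2 (adjusted p of 0.168 and 0.053), the first not without either glucose-deprived library (0.11 and 0.156). RNU6-90P stood at 1.11 and 1.39, then 1.26 and 1.10, then 0, with a fall in glutamine deprivation (adjusted p = 0.0445) that was lost without either control (0.094 and 0.133). RNU6-1088P stood at 0 and 0.202 in control, 2.06 and 2.24 in glucose deprivation and 0 in glutamine deprivation, and was not called in glucose deprivation without control replicate 1 (adjusted p = 0.0505). RNU6-540P stood at 2.03 and 2.29 in control and 0 in glutamine deprivation. Its fall there (adjusted p = 0.0143) was not called without control replicate 1 (0.0684) or without control replicate 2 (0.0873).

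In the minor spliceosome U11, which recognises the start of minor introns, fell the furthest. RNU11 stood at 119 and 124 in control, 15.4 and 19.1 in glucose deprivation and 57.0 in glutamine deprivation, from 542 and 789, then 77 and 88, then 286 fragments. Its mean was 7.03-fold lower in glucose deprivation and 2.13-fold lower in glutamine deprivation. The log2 fold changes were -2.75 (SE 0.10, adjusted p = 5.2e-06) and -1.08 (SE 0.13, adjusted p = 0.000351), and glutamine deprivation lay above glucose deprivation by 1.67 (SE 0.13, adjusted p = 0.000114). The 3 media did not overlap, and all 3 calls held in each alternative setting tried. AL360012.1, the lincRNA gene over RNU11, differed by -0.46 (adjusted p = 0.164) and 0.56 (adjusted p = 0.170).

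RNU4ATAC, the minor counterpart of U4, stood at 19.2 and 25.7 in control, 7.81 and 5.05 in glucose deprivation and 17.5 in glutamine deprivation. It fell by 1.67 (SE 0.21, adjusted p = 0.000417) in glucose deprivation, 3.49-fold in its mean, and differed by -0.33 (adjusted p = 0.313) in glutamine deprivation. Its direct difference between the deprivations was 1.34 (adjusted p = 0.00452). With no filter on low rows neither call was made (adjusted p of 0.0527 and 0.107). The copies RNU4ATAC18P and RNU4ATAC16P rose in glucose deprivation: RNU4ATAC18P stood at 2.10 and 2.67, then 7.87 and 6.71, then 5.72 (1.29, adjusted p = 0.00101). RNU4ATAC16P stood at 0.932 and 2.51, then 5.96 and 6.47, then 4.24 (1.47, adjusted p = 0.00402). Their hosts differ in direction in that comparison, SOD2 by -0.45 and WNK1 by 0.95. In glutamine deprivation RNU4ATAC18P was not called without control replicate 1 (adjusted p = 0.0623), and RNU4ATAC16P was not called without it (0.154) or without either glucose-deprived library (0.102 and 0.104).

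The row of U12, which pairs with the branch point of minor introns, did not differ detectably at this depth. RNU12 stood at 3.91 and 6.59 in control, 5.18 and 5.63 in glucose deprivation and 6.23 in glutamine deprivation (log2 fold change 0.07, adjusted p = 0.822, and 0.24, adjusted p = 0.494). It lies in an exon of Z93241.1, a lincRNA row on the same strand, which stood at 22.2 and 21.2, then 3.15 and 5.18, then 13.2. That row fell by 2.17 (adjusted p = 4.3e-05) and by 0.68 (adjusted p = 0.0238), and the limit on shared fragments named for RNVU1-14 holds here as well. RNU6ATAC was low, at 1.16 and 3.51, then 1.49 and 2.54, then 1.70, with overlapping media. The other copies of the minor types named for their mean level, RNU11-3P, RNU11-6P, RNU12-2P, RNU6ATAC10P and RNU6ATAC24P, reached at most 4.35 FPKM and were called in no comparison.

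**Figure D3:**
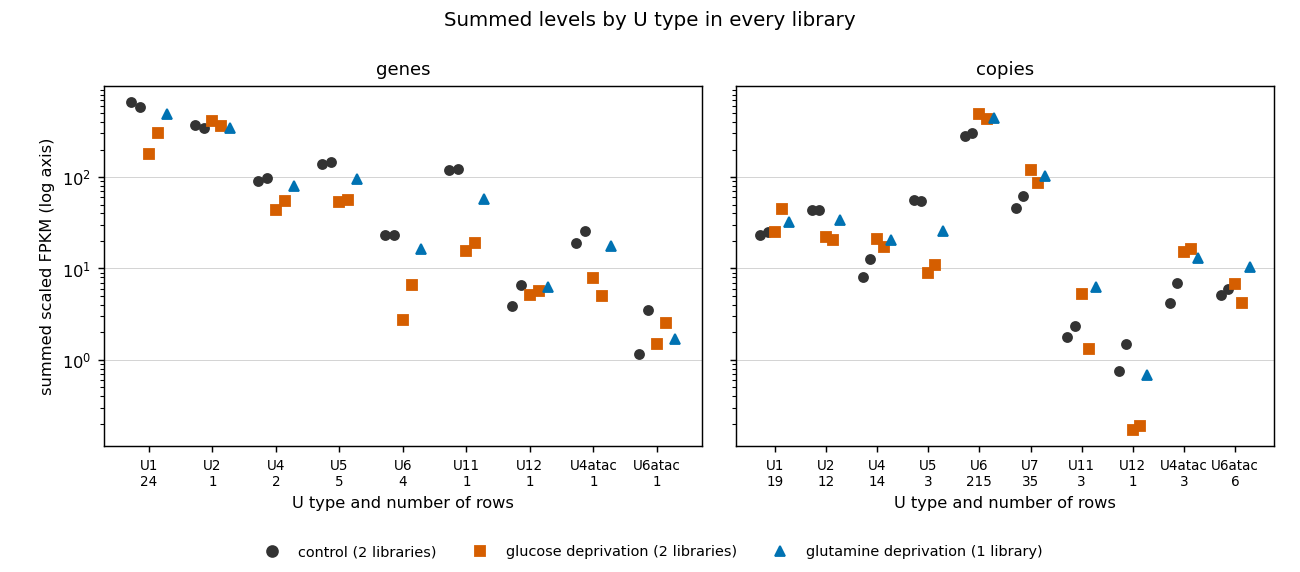
Summed level (scaled FPKM, log axis) of the genes and of the copies of each U type in each library. Gene sums of U1, U4, U5, U6, U11 and U4atac lie lower in both glucose-deprived libraries than in the controls, while the sums of U6 and U7 copies lie higher in both deprivations than in the controls. Rows entered through their highest library, which these sums inherit.

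The U7 gene itself, RNU7-1, of 63 bases, was listed at 0 in all 5 libraries, so only rows of U7 copies could be read. Those rows do not give the level of U7 RNA. The 35 U7 copies summed to 54.0 ± 11.2 (SD, n = 2) in control, 102 ± 23.7 (SD, n = 2) in glucose deprivation and 102 in glutamine deprivation. The limit named for the sum of U6 copies, entry through the highest library, holds for this sum as well. In glucose deprivation 6 (17.1%) rose and none fell, and in glutamine deprivation 5 (14.3%) rose and none fell, again below the 26.3% and 24.7% of all rows tested. RNU7-124P stood at 3.31 and 4.41 in control, 9.94 and 7.52 in glucose deprivation and 19.8 in glutamine deprivation. It rose by 1.00 (SE 0.22, adjusted p = 0.00676) and by 2.11 (SE 0.27, adjusted p = 0.000566), the first not called without control replicate 1 (0.0696). Its host AL138752.2 fell by 0.71 and 0.54 in the same comparisons. RNU7-80P and RNU7-48P, the other U7 rows of highest mean, stood at 5.29 and 4.48, then 10.1 and 6.21, then 6.57, and at 2.79 and 7.68, then 11.5 and 5.55, then 5.51. Neither was called in any comparison.

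RNU7-7P stood at 0 and 0.339 in control, 3.03 and 2.82 in glucose deprivation and 1.72 in glutamine deprivation, a rise by 1.76 (adjusted p = 0.0042) in glucose deprivation. Its smaller rise in glutamine deprivation was not called without control replicate 1 (0.135) or 2 (0.0598). RNU7-151P stood at 0 and 0.397, then 1.52 and 0.550, then 4.53, a rise by 2.23 (SE 0.52, adjusted p = 0.00904) in glutamine deprivation that was not called without control replicate 1 (0.056). RNU7-187P stood at 0.863 and 2.79, then 7.49 and 5.57, then 1.57. Its rise in glucose deprivation (1.49, adjusted p = 0.0112) was not called without control replicate 1 (0.0753) or without glucose deprivation replicate 1 (0.0928). RNU7-59P, in an intron of CLNS1A, stood at 0.962 and 2.07, then 3.51 and 1.91, then 0, and was lower in glutamine than in glucose deprivation by -1.86 (SE 0.49, adjusted p = 0.018), a call lost without glucose deprivation replicate 1 (0.0569).

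The only gene called higher in glucose deprivation was RNU105B, which RefSeq lists as a small nucleolar RNA. It stood at 0.141 and 0.405 in control, 1.80 and 0.980 in glucose deprivation and 0.770 in glutamine deprivation (0.90, adjusted p = 0.0454). The call was lost without control replicate 1 (0.19), without control replicate 2 (0.0943) and without the glutamine-deprived library (0.0638).

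**Figure D4:**
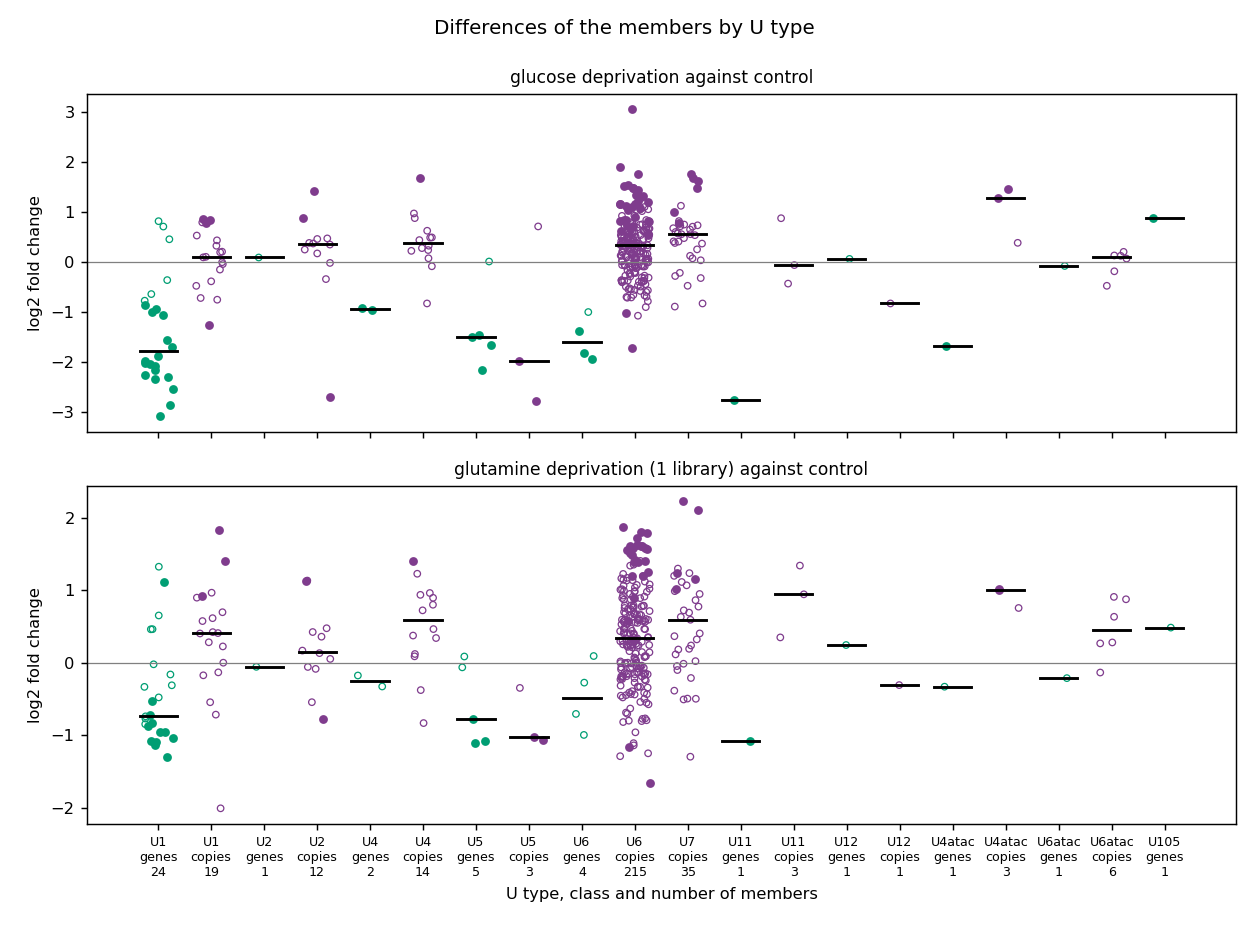
Log2 fold change of each small nuclear RNA in glucose deprivation and in glutamine deprivation against control, on the log2(FPKM + 1) scale, by U type, with genes and copies marked apart. Genes lie mostly below 0 in glucose deprivation, with a median of -1.50, and copies above it, with a median of 0.36.

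Copies and genes also differed in where they lie. Of the 311 copies, 258 (83.0%) lie within an intron of a gene on the same strand, with a median host level of 6.23 FPKM, 13 (4.18%) within an intron on the opposite strand, and 36 (11.6%) outside any annotated gene. Of 1467 copies below the level, 282 (19.2%) lie in a same-strand intron, with a median host level of 0.0551 FPKM, 470 (32.0%) in an opposite-strand intron and 666 (45.4%) outside genes. Of the 41 genes, 19 overlap no other gene. Unspliced RNA of a host would give fragments over a copy on its strand, and its part in the copies' levels was not tested.

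Among the 258 copies in same-strand introns 39 (15.1%) rose and 1 fell in glucose deprivation, and 27 (10.5%) rose and 2 fell in glutamine deprivation, below the shares of 26.3% and 24.7% over all rows tested. Across those 258 copies, the mean log level of copy and host correlated with a Pearson r of 0.48 and a Spearman rho of 0.52, a description over rows that share libraries and depth. The log2 fold changes of copy and host correlated weakly over the 236 pairs in which the host was tested. The r was 0.20 in glucose deprivation, 0.15 in glutamine deprivation and 0.34 between the deprivations. Most copies called against control were higher, and the median host difference was 0.07 in glucose deprivation and 0.03 in glutamine deprivation. The share of all 236 pairs with equal sign was not computed, so the counts that follow do not tell whether copies move with their hosts. Of 35 called copies with a tested host, 24 had the sign of their host in glucose deprivation, 14 of 25 had it in glutamine deprivation, and 11 of 15 had it between the deprivations.

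Other short RNA rows were read in the same way for comparison, chosen after the values of the small nuclear RNAs were seen. Of 136 tested copies of 7SK, 7SL and Y RNAs, 23 rose and 2 fell in glucose deprivation, with a median log2 fold change of 0.29, and 17 rose and 1 fell in glutamine deprivation, with a median of 0.36. Of 853 other rows of at most 200 bases, 107 rose and 35 fell in glucose deprivation (median 0.19). Of 194 small nucleolar and Cajal body RNAs, 20 rose and 16 fell in glucose deprivation (median 0.06), and 2 rose and 33 fell in glutamine deprivation (median -0.20). Among all rows tested, 26.3% were higher and 28.1% lower in glucose deprivation, and 24.7% higher and 26.2% lower in glutamine deprivation. Each count given for these sets is a smaller share of its set than the matching share of all rows. The sets were thus called higher less often than rows at large. The medians of the small nuclear RNA copies in glucose and glutamine deprivation were 0.36 and 0.37. Scaled to the sum of FPKM, the small nucleolar and Cajal body RNAs had a median of 0.05 in glutamine deprivation, so their direction there depends on the scaling.

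The copies have drifted from the genes by different amounts. Identity to the reference gene of the type had a median of 91.5% over the U1 genes and 82.3% over the U1 copies. It was 82.2% over the U6 copies and 79.4% over the U7 copies, and lower over the 6 U6atac copies (67.7%) and the 12 U2 copies (64.1%). The Sm-type letters AATTTNT, searched on the transcript strand, occurred in 72.5% of 40 genes with a sequence, in 37.6% of the 311 copies and in 33.8% of all 1830 matching rows with a sequence. These shares mix U types in unlike proportions, as 215 of the 311 copies are U6. Within U6 the letters occurred in 0 of 4 genes and in 64 of the 215 copies (29.8%). Within U1 they occurred in 19 of 23 genes and in 10 of 19 copies. GTAGTA occurred in 36 of 71 U2 rows (50.7%), and AATTTNT in 29 of the 35 U7 copies and in 124 of 149 U7 rows (83.2%). A match to these letters is a description of the sequence only.

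The genes for proteins that build and use these RNAs were read from lists of the pathway, and those named with values were chosen after the values were seen. Over all rows tested 26.3% were higher and 28.1% lower in glucose deprivation, and 24.7% higher and 26.2% lower in glutamine deprivation. Of 14 Sm and Lsm protein genes, 12 fell and none rose in glucose deprivation (median log2 fold change -0.47), and 13 fell and none rose in glutamine deprivation (-0.81). SNRPG, a subunit of the Sm ring, stood at 57.4 and 57.0 in control, 29.7 and 32.9 in glucose deprivation and 28.6 in glutamine deprivation (-0.85, adjusted p = 2.38e-05, and -0.98). SNRPB, another subunit of the ring, stood at 318 and 315, then 185 and 204, then 217. It fell by 0.70 and 0.54, the latter not called when scaled to the sum of FPKM (adjusted p = 0.402).

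Of 15 genes for U1 and U2 proteins, 10 fell and 1 rose in glucose deprivation and 8 fell and 2 rose in glutamine deprivation. SF3B6, a U2 protein, fell by 0.78 and by 1.02, and SF3A2, also of U2, rose by 0.40 and 0.74. Of 17 genes for proteins of U4, U5 and U6, 13 fell and 2 rose in each deprivation. PRPF4, a U4/U6 protein, fell by 0.74 and 0.67. Of 11 tested genes for proteins of the minor spliceosome, 6 fell and 2 rose in glucose deprivation and 6 fell and 1 rose in glutamine deprivation. SNRNP25, a U11/U12 protein, fell by 0.54 and 0.74, and RNPC3, which bridges U11 and U12, rose by 0.49 in glucose deprivation.

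Of 10 genes for U7 proteins and histone processing, 4 rose and 4 fell in glucose deprivation, and 2 rose and 5 fell in glutamine deprivation. LSM10, an Lsm protein of the U7 ring, fell by 0.68 (adjusted p = 0.000504) and 0.60, while LSM11, its partner in that ring, rose by 0.46 in glucose deprivation and differed by -0.01 in glutamine deprivation. Of 27 genes for transcription and Integrator cleavage of small nuclear RNAs, 9 (33.3%) fell and 2 rose in glucose deprivation (median -0.04), against 28.1% of all rows tested that fell, and 14 (51.9%) fell and 3 rose in glutamine deprivation (median -0.23). INTS6, an Integrator subunit, fell by 0.64 and 0.28, and SNAPC4, a subunit of the promoter-binding complex, fell by 0.39 in glucose deprivation and differed by 0.12 in glutamine deprivation. Of 27 genes for export and assembly, 21 fell and 2 rose in glucose deprivation (median -0.29), and 24 fell and 1 rose in glutamine deprivation (median -0.47). PHAX, the export adaptor, fell by 0.50 and 0.77.

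The Sm and Lsm genes kept medians of -0.43 to -0.36 in glucose deprivation and -0.66 to -0.51 in glutamine deprivation under the 3 other scalings. Scaling to the sum of FPKM also took the calls over all rows in glucose deprivation from 9113 to 5463. With it 67.7% of all calls in glucose deprivation and 91.0% in glutamine deprivation were higher. Lower calls thus became fewer over all rows as well, and a smaller number in a list need not be particular to it. Scaled to the sum of FPKM, 7 and 8 of the 14 were called lower. For the U1 and U2 proteins that scaling left 4 and 3 genes called lower, and for the minor spliceosome 2 and 1. For the U4, U5 and U6 proteins it left 2 genes called lower in glucose deprivation and none in glutamine deprivation, and for export and assembly 6 and 5. The median of the transcription and Integrator list changed sign in it, to 0.06 and 0.05, as did that of the U7 and histone list, and so neither list has a direction that holds for all scalings. INTS6 and LSM10 were not called lower in glutamine deprivation with it (adjusted p of 0.881 and 0.114), nor were PRPF4 (0.109) and, in glucose deprivation, SNAPC4 (0.104). INTS6 was not called in glutamine deprivation with the values as deposited either (0.0558). The median of the RNA genes, -1.50 in glucose deprivation and -0.48 in glutamine deprivation, became -1.45 to -1.39 and -0.36 to -0.21 under the same scalings.

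**Figure D5:**
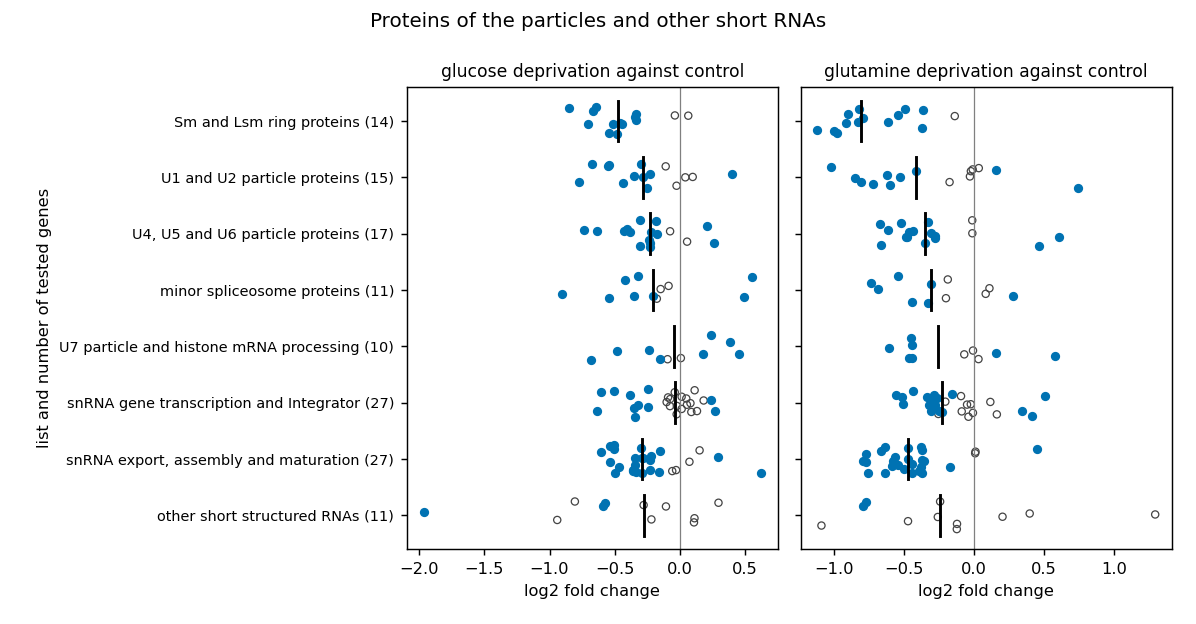
Log2 fold change against control, on the log2(FPKM + 1) scale, of the genes for small nuclear RNA proteins, transcription, export and assembly, by list and by deprivation. The Sm and Lsm genes have medians of -0.47 in glucose deprivation and -0.81 in glutamine deprivation.

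Abundant short RNAs outside the small nuclear RNAs were read as a further list. Of its 11 tested members, 3 (27.3%) fell and none rose in glucose deprivation and 2 (18.2%) fell and none rose in glutamine deprivation. Over all rows tested 28.1% and 26.2% fell, so the list was called lower at no larger share than all rows. VTRNA1-3, a vault RNA, stood at 44.2 and 43.5, then 9.03 and 12.1, then 36.9, a fall by 1.97 (adjusted p = 3.8e-05) in glucose deprivation and a difference of -0.24 (adjusted p = 0.284) in glutamine deprivation. RNY1, a Y RNA, stood at 26.0 and 27.0, then 14.9 and 19.9, then 35.2 and fell by 0.59 (adjusted p = 0.00986) in glucose deprivation, a call lost without control replicate 1 (0.079), without control replicate 2 (0.103) or without glucose deprivation replicate 1 (0.0534). RN7SK, the RNA that holds the elongation factor P-TEFb inactive, had means of 64984 in control and 70375 in glucose deprivation and 59698 in glutamine deprivation, with a log2 fold change in glucose deprivation of 0.11 (adjusted p = 0.449). Leaving out a library changed the calls of this list. Fewer members were called lower in either deprivation without control replicate 1 or without control replicate 2. The median in glucose deprivation, -0.28, became -0.06 without glucose deprivation replicate 1 and -0.50 without glucose deprivation replicate 2. Scaled to the sum of FPKM, the median in glutamine deprivation went from -0.24 to 0.07, so the direction of the list there depends on the scaling.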

How the data were processed

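Total RNA of 95D cells was depleted of ribosomal RNA and read in pairs of 150 bases, per the labels' protocols. The tools HISAT2 2.0.5 and StringTie and the build hg38 are named in the submitters' processing notes. Neither an annotation nor a strand setting is given in the sources used here. The unit of the deposited values is read as FPKM, computed by the authors from their alignments. This unit stands in no header. Fractional values, library sums between 493129 and 571208, and steps of whole reads in single-exon genes led to it, and 97.8% to 98.1% of such genes came out whole within 0.05 reads. Of 6 value columns in the tables of the 3 groups, 1 in the glutamine table is headed as a glucose-deprived replicate and was not mapped or used. A combined deposited table repeated the 5 columns used and was left out.

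FPKM were divided by trimmed-mean factors (30% of ratios and 5% of abundances trimmed) of 0.960, 0.971, 1.01, 0.979 and 1.08. The test was limma (version 3.58.1, under R 4.3.3), run on log2 of FPKM with a pseudocount of 1, over the 16752 rows that reached 1 FPKM in some library. A single fit held all 5 libraries and had 2 residual degrees of freedom. It assumes that the glutamine-deprived library, the only one of its medium, varies as the others do. The variance prior followed a trend on inferred reads. Adjusted p-values are two-sided Benjamini-Hochberg values with a threshold of 0.05. The count tests planned at first were not used, as the values are FPKM. The fit was tested on simulated data. Tables and plots were made with Python 3.11.15, pandas 2.3.3 and matplotlib 3.10.9.

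The members and the lists were chosen with earlier results of these data known. Named in full are the reference genes of each type, the 3 members of highest mean in each type and the 5 largest called rises and falls of each comparison. The split into genes and copies, the places, hosts, identities, motifs and comparison sets were chosen after values were seen. Sequences and places come from GENCODE release 29 on GRCh38, which located 351 of the 352 members, and gene kinds from RefSeq. Sequences of the U5 and U6 rows are not reported here. A host is the overlapping gene of highest mean FPKM. Same-numbered control and glucose-deprived libraries did not deviate together (r = -0.02 over 16752 rows, 2 pairs), so replicate numbers were not used as pairs. Alternatives tried were 3 other scalings, other pseudocounts and filters, other variance settings, a replicate block and leaving out each library.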

Additional observations from a re-analysis of the deposited data

Results flagged for a closer look

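RNU1-1 was called lower than control in glucose deprivation and higher than control in glutamine deprivation, and the direct difference between the deprivations was 2.66 on the log2 scale. Its levels were 20.4 and 24.6 in control, 9.48 and 5.15 in glucose deprivation and 49.7 in the single glutamine-deprived library. RNU1-1 shares its sequence with 7 other rows, and the summed level of all 8, RNU1-1 included, was 136 and 134 in control, 49.5 and 63.2 in glucose deprivation and 113 in glutamine deprivation, below both controls. The rise in glutamine deprivation was not called without control replicate 1 (adjusted p = 0.115) or without control replicate 2 (adjusted p = 0.0771, limma with Benjamini-Hochberg adjustment), while the direct difference was called in every alternative tried. With no filter on low rows neither the fall nor the rise against control was called, and with the variance trend over the level the rise was not called. The part of read assignment among identical rows in the result for RNU1-1 was not tested.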

How the results depend on the processing

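Of the named genes called in glucose deprivation, 21 of 30 were called in every alternative that tested them, as were 8 of 16 in glutamine deprivation and 14 of 25 between the deprivations. For copies the numbers were 7 of 19, 6 of 16 and 4 of 10. The total of 80 members called in glucose deprivation became 46 with no filter on low values and 53 with at least 10 inferred reads on average, and 50 to 89 when 1 library was left out. The total of 56 in glutamine deprivation became 36 with no filter and 36 with at least 10 inferred reads, and 27 to 75 with 1 library left out. The total of 48 between the deprivations became 31 with no filter and 75 with the variance trend over the level, and 34 to 53 with 1 library left out. With no filter the variance moderation had a prior of 0.945 degrees of freedom against 5.51 with the filter used. Over all alternatives genes lower in glucose deprivation numbered 24 to 29, genes lower in glutamine deprivation 10 to 17, and genes higher in glutamine than in glucose deprivation 14 to 29. With the replicate block the totals were 78, 51 and 48. Whether equal numbers mark paired cultures is not told by the labels, and the r of -0.02 cannot exclude it. The block ended the calls of RNVU1-28 and RNU105B in glucose deprivation, of RNVU1-29 in glutamine deprivation and of RNU5A-1 between the deprivations among named genes.

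RNU1-3, glucose deprivation against control, had a log2 fold change of -0.94 (adjusted p = 0.0338) without glucose deprivation replicate 1 and 2.59 without replicate 2, against 0.82 with both. RNU1-3, glutamine deprivation against glucose deprivation, had 1.59 (adjusted p = 0.0164) without glucose deprivation replicate 1 and -1.94 without replicate 2, against -0.17 with both. Of 299 alternative values of summed levels by type, 60 moved by more than the spread between replicates. Depth limits the low rows: 251 of 352 members averaged fewer than 10 reads.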
